A study of Mus musculus with 6 samples.

Results

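The mRNAs of 10 endoplasmic reticulum (ER) chaperones and unfolded protein response genes were examined in GC-2spd cells, a line derived from mouse male germ cells, under hypoxia and normoxia. The genes are a list of ER chaperones and of known targets of the transcription factors XBP1 and ATF6: Hspa5, Hsp90b1, Calr, Canx, Xbp1, Dnajb9, Herpud1, Sdf2l1, Creld2 and Manf. All 10 were found once each among 43412 annotated genes, and all 10 had a mean of at least 1 TPM, a unit of transcript abundance scaled to transcript length and library total, as did 13749 genes in all. The series holds 3 libraries of cells kept at 1% O2 in a hypoxia workstation and 3 libraries of cells kept in an incubator at 21% O2, both with 5% CO2. All cells were of the same line, with a C57BL/6J strain background by their labels, and grew in the same serum-containing medium with no other agent. The hypoxia model of the study ran for 48 h, a duration that is not restated for these libraries. Experiments were run in triplicate, but the sources do not say whether these libraries came from separate cultures, so p-values measure only the spread between these libraries.

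Poly(A) RNA was sequenced. An estimated 5.80 to 6.72 gigabases were aligned in the hypoxia libraries and 5.75 to 6.61 in the normoxia libraries. Mitochondrially encoded genes took 5.49 to 5.59% of the annotated TPM under hypoxia and 9.25 to 9.29% under normoxia. Of all genes tested, 2463 (17.9%) were higher and 4967 (36.1%) were lower under hypoxia, at an adjusted p under 0.05 by limma on log2(TPM + 1), and the median log2 fold change was -0.13. After median-ratio scaling or quantile normalization this median was 0.00, and 49.9% and 49.6% of the called genes were higher, against 33.1% with TPM as deposited. A set of 8 hypoxia-inducible factor (HIF) target genes summed to 2949 to 2991 TPM in the hypoxia libraries and 755 to 777 TPM in the normoxia libraries. Germ cell markers were near absent: 0 of 6 had a mean of at least 1 TPM, with Tex101 and Mael at 0, and of 10 meiotic spermatocyte markers only Hspa2 did, with Sycp1, Hormad1, Stra8 and Piwil1 at 0. Of 8 spermatid markers, 2 reached that level, with Acr, Prm2 and Tnp1 at 0. Of 8 fibroblast and myoid markers, 7 did, and their summed level was 6854 to 7069 TPM under hypoxia and 3305 to 4264 TPM under normoxia. That difference in the sum lay in Vim, at 3937 to 4131 TPM under hypoxia and 1016 to 1905 TPM under normoxia, and in Col1a1, at 1687 to 1775 TPM under hypoxia and 1116 to 1221 TPM under normoxia. Col1a2, Col3a1 and Acta2 overlapped between the groups, and Pdgfra and Pdgfrb were lower in every hypoxia library. The part of these marker and mitochondrial differences in the results below was not tested, and in such bulk RNA a change in the cells present and a change in RNA per cell cannot be told apart.

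The ER folds secreted and membrane proteins with a set of resident chaperones. BiP, encoded by Hspa5, and GRP94, encoded by Hsp90b1, bind unfolded chains, while calreticulin and calnexin, encoded by Calr and Canx, bind glycoproteins through their sugars. When unfolded proteins build up, the sensors IRE1, ATF6 and PERK start the unfolded protein response: IRE1 splices the Xbp1 mRNA so that it encodes an active transcription factor, ATF6 is cut in the Golgi to release another, and PERK phosphorylates eIF2alpha, which favours translation of ATF4. XBP1 and ATF6 raise chaperones and degradation factors through short promoter elements, the ER stress element (ERSE) among them. Low oxygen can load this system because disulfide bond formation in the ER uses oxygen as an electron acceptor.

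Promoter windows were read to see which genes carry those elements in their sequence. RefSeq promoters of 300 bases, 250 before and 50 from the annotated start on, matched 9 of the 10 genes by symbol, all but Manf. The ERSE, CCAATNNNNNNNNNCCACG on either strand, was present in 5 of the 9 windows, against 39 of 32851 mouse promoters of the same length (0.119%). The list was drawn up as known XBP1 and ATF6 targets, so this share describes the choice of genes as much as the genes. The 6 windows that hold an ERSE or the related ERSE-II are printed 5′ to 3′ in the gene's direction (RefSeq, GRCm38.p6), with both fixed blocks of each ERSE, and the whole of the ERSE-II, in capitals. On the minus strand of a window the ERSE reads CGTGG, 9 bases, ATTGG.
Hspa5, chr2:34771840-34772139, plus strand: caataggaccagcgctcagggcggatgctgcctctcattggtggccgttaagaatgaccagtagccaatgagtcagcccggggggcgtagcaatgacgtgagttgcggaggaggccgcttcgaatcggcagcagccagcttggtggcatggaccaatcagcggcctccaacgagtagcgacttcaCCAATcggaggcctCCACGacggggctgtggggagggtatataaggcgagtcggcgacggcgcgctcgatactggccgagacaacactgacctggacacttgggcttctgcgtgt
Hsp90b1, chr10:86705395-86705694, minus strand: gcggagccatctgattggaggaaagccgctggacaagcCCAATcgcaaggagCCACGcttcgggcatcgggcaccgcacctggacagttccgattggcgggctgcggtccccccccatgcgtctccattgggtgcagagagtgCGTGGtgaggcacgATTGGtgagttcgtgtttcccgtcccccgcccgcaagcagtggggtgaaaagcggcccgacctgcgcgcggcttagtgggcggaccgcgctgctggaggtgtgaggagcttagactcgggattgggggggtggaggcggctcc
Calr, chr8:84846882-84847181, minus strand: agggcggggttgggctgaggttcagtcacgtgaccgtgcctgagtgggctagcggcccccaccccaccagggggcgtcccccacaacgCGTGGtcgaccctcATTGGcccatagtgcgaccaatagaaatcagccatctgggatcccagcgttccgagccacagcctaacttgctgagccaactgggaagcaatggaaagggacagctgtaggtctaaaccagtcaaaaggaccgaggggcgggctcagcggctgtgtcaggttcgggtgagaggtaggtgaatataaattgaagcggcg
Canx, chr11:50325624-50325923, minus strand: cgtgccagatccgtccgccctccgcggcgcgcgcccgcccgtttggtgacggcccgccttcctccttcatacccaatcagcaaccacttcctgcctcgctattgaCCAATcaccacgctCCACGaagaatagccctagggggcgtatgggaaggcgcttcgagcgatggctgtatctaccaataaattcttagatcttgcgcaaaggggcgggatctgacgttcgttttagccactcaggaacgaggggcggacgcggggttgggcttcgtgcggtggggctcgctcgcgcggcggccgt
Creld2, chr15:88819396-88819695, plus strand: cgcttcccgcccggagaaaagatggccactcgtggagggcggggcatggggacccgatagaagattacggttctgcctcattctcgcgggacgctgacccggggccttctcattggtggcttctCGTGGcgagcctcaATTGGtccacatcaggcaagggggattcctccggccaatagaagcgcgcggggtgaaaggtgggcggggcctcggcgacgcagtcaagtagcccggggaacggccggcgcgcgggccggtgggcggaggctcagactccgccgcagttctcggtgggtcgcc
Herpud1, chr8:94386179-94386478, plus strand: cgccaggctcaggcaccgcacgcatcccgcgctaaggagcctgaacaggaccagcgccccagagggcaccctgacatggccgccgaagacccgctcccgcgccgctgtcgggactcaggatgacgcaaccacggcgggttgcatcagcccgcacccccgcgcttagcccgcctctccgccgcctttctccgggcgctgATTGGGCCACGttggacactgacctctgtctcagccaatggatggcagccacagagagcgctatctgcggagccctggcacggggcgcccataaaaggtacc

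Counted from the annotated start, the Hspa5 element lay at -65 to -47. Hsp90b1 held it at -212 to -194 and again, on the other strand, at -107 to -89. Calr had it at -162 to -144, Canx at -145 to -127 and Creld2 at -126 to -108. Herpud1 carried no ERSE but an ERSE-II, ATTGGNCCACG, at -52 to -42, which 12 promoters in all held (0.0365%). Xbp1, Dnajb9 and Sdf2l1 had neither element in this window, and the half-elements CCAAT and CCACG each occurred in 8 of the 9 windows, against 37.4% and 32.8% of all promoters.

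Of the 10 genes, 5 were higher under hypoxia (Hspa5, Hsp90b1, Canx, Xbp1 and Dnajb9), 2 were lower (Herpud1 and Creld2) and 3 were not called (Calr, Sdf2l1 and Manf). The corresponding background shares were 17.9% higher and 36.1% lower over all genes tested. The median log2 fold change of the 10 was 0.17, against -0.13 for all genes tested. In 6 of the 10 all hypoxia libraries lay above all normoxia libraries, as in 21.4% of genes tested, and in 2 they lay below, as in 41% of genes tested. The log2 fold changes ran from -0.39 to 0.77, so the genes did not move as one group.

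**Figure D1:**
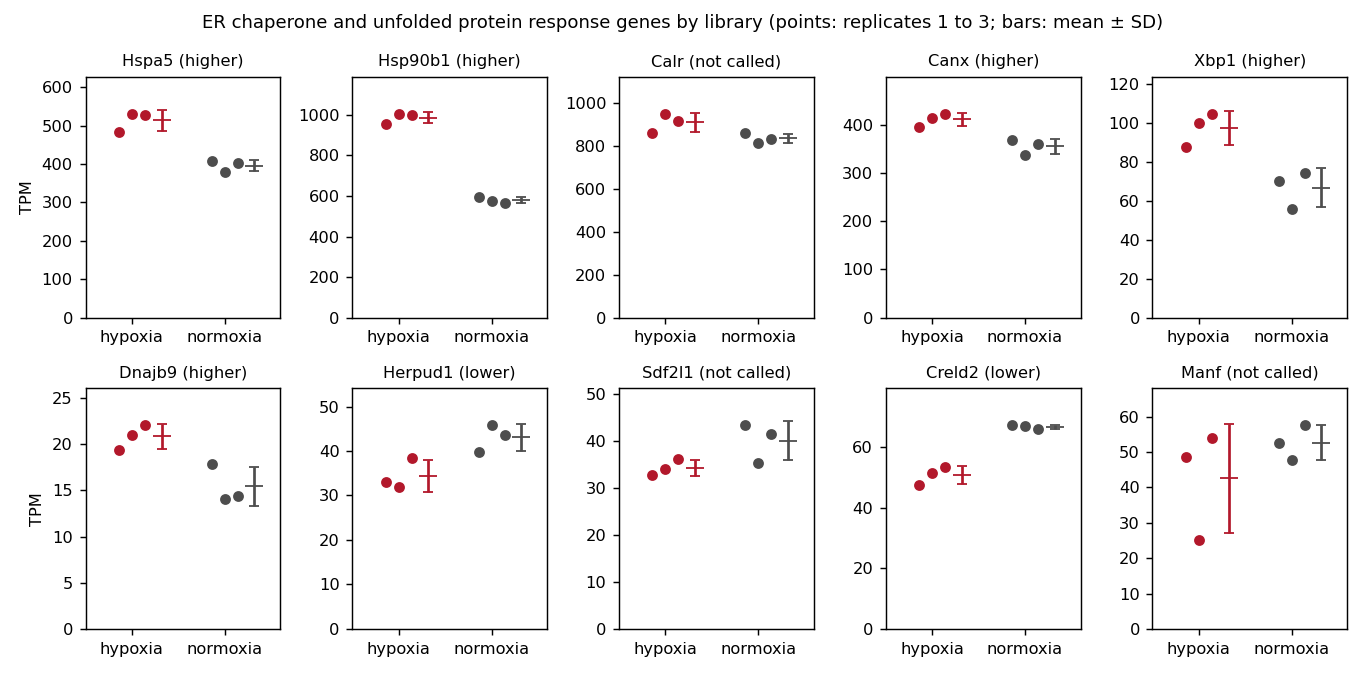
TPM (vertical axes, from 0) of the 10 genes in 3 hypoxia and 3 normoxia libraries, with points for replicates 1 to 3 in order and bars for the mean ± SD. Hsp90b1 shows the widest gap, 956 to 1006 TPM under hypoxia against 565 to 594 TPM under normoxia, whereas 1 low hypoxia library of Manf, at 25.2 TPM, sets its wide error bar.

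Hsp90b1, the ER member of the HSP90 family, had the largest log2 fold change of the 10 with TPM as deposited. Its levels were 956, 1006 and 1000 TPM in hypoxia replicates 1, 2 and 3, against 594, 575 and 565 TPM in normoxia replicates 1, 2 and 3. The groups lay far apart, with a mean of 987 ± 27.3 TPM under hypoxia and 578 ± 14.7 TPM under normoxia (SD, n = 3 each). The log2 fold change was 0.77 ± 0.04 (SE), with a 95% interval of 0.68 to 0.86 and a limma adjusted p of 1.4e-05, a 1.71-fold higher mean TPM. Hspa5, which encodes BiP, the ER member of the HSP70 family and the regulator that holds the stress sensors inactive, had 483, 531 and 528 TPM under hypoxia, against 407, 378 and 402 TPM under normoxia. The groups did not overlap. Hspa5 rose, with a log2 fold change of 0.37 ± 0.05 (SE), an interval of 0.25 to 0.50 and a limma adjusted p of 0.000964.

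Of the lectin chaperones, Canx was called and Calr was not with TPM as deposited. Canx, the membrane-bound calnexin, had 396, 415 and 424 TPM under hypoxia, against 368, 339 and 360 TPM under normoxia, and every hypoxia library was above every normoxia library. Its log2 fold change was 0.21 ± 0.05 (SE), with an interval of 0.10 to 0.32 and a limma adjusted p of 0.00776. Calr, the soluble calreticulin, which also buffers ER calcium, had 862, 951 and 919 TPM under hypoxia, against 859, 816 and 833 TPM under normoxia. The lowest hypoxia library and the highest normoxia library of Calr were thus nearly level. Its log2 fold change of 0.12 ± 0.05 (SE, interval 0.02 to 0.23) did not pass the threshold, with a limma adjusted p of 0.0558. Calr was called higher after median-ratio scaling (0.27, limma adjusted p = 0.00146) and without hypoxia replicate 1 (0.16, 0.0192), while quantile normalization gave -0.05 (0.45).

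Xbp1, the transcription factor whose mRNA is the substrate of IRE1, had 87.5, 99.6 and 105 TPM under hypoxia, against 70.0, 55.6 and 74.4 TPM under normoxia. Normoxia replicate 2 was the lowest library, and the groups did not overlap. The log2 fold change was 0.55 ± 0.12 (SE), with an interval of 0.26 to 0.83 and a limma adjusted p of 0.00768. Without normoxia replicate 2 it was 0.42, with a limma adjusted p of 0.0103. The values are sums over all forms of the gene and do not separate spliced from unspliced Xbp1.

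Dnajb9 (ERdj4), a J-domain cochaperone of BiP, was the least abundant of the 10, with 19.4, 21.0 and 22.1 TPM under hypoxia and 17.9, 14.04 and 14.4 TPM under normoxia. Every hypoxia library was higher, although normoxia replicate 1 came near. The log2 fold change of Dnajb9 was 0.41 ± 0.10 (SE), with an interval of 0.17 to 0.66 and a limma adjusted p of 0.0137. Sdf2l1, an ER protein found in a complex with the BiP cochaperone ERdj3, had 32.7, 33.9 and 36.1 TPM under hypoxia, against 43.3, 35.3 and 41.5 TPM under normoxia. The groups overlapped at normoxia replicate 2, and the log2 fold change of -0.22 ± 0.09 (SE, interval -0.42 to -0.01) did not pass the threshold, with a limma adjusted p of 0.0727. It was called lower without that library (-0.30, limma adjusted p = 0.014), without the mitochondrially encoded genes (-0.25, 0.0358) and on FPKM (-0.26, 0.0193).

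Herpud1, a membrane protein of the HRD1 ubiquitin ligase complex for ER-associated degradation, moved the other way from the chaperones. It had 33.0, 31.8 and 38.4 TPM under hypoxia, against 39.8, 45.8 and 43.6 TPM under normoxia, and the groups did not overlap. The log2 fold change was -0.32 ± 0.09 (SE), with an interval of -0.53 to -0.11 and a limma adjusted p of 0.0199. This call was lost after median-ratio scaling (-0.18, limma adjusted p = 0.125) and quantile normalization (-0.18, 0.114), and in 4 of the 6 fits that left out 1 library, namely hypoxia replicate 1 (0.0618), hypoxia replicate 2 (0.0629), normoxia replicate 2 (0.0637) and normoxia replicate 3 (0.0565).

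Creld2, an ER protein with disulfide isomerase-like activity that ER stress induces, was lower under hypoxia by a wide margin relative to its spread. It had 47.6, 51.4 and 53.7 TPM under hypoxia, against 67.4, 67.1 and 66.1 TPM under normoxia, and the 3 normoxia libraries lay within a narrow band. The log2 fold change was -0.39 ± 0.06 (SE), with an interval of -0.52 to -0.26 and a limma adjusted p of 0.00121. Creld2 stayed lower after median-ratio scaling, at -0.25 with a limma adjusted p of 0.00469. Manf, a secreted factor that ER stress also induces, had 48.7, 25.2 and 54.0 TPM under hypoxia, against 52.5, 47.8 and 57.6 TPM under normoxia. Hypoxia replicate 2 stood apart and the groups overlapped. The log2 fold change of Manf was -0.37 ± 0.27 (SE, interval -1.0 to 0.27) with a limma adjusted p of 0.285, and it was -0.03 without hypoxia replicate 2.

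The calls were compared across scalings because the median gene was lower under hypoxia. After median-ratio scaling, which sets that median to 0.00, the log2 fold changes were 0.92 for Hsp90b1, 0.69 for Xbp1, 0.55 for Dnajb9, 0.52 for Hspa5 and 0.36 for Canx, and 6 of the 10 were higher and 1, Creld2, was lower. Quantile normalization gave 0.64 for Hsp90b1, 0.62 for Xbp1, 0.60 for Dnajb9, 0.32 for Hspa5 and 0.18 for Canx, with 5 higher and 1 lower. The 5 genes called higher with TPM as deposited were so under both scalings. Over all 13749 genes tested, 3603 were higher and 3622 lower after median-ratio scaling, and 3575 and 3639 after quantile normalization. Scaled counts here and in the lists below stand beside these all-gene counts.

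**Figure D2:**
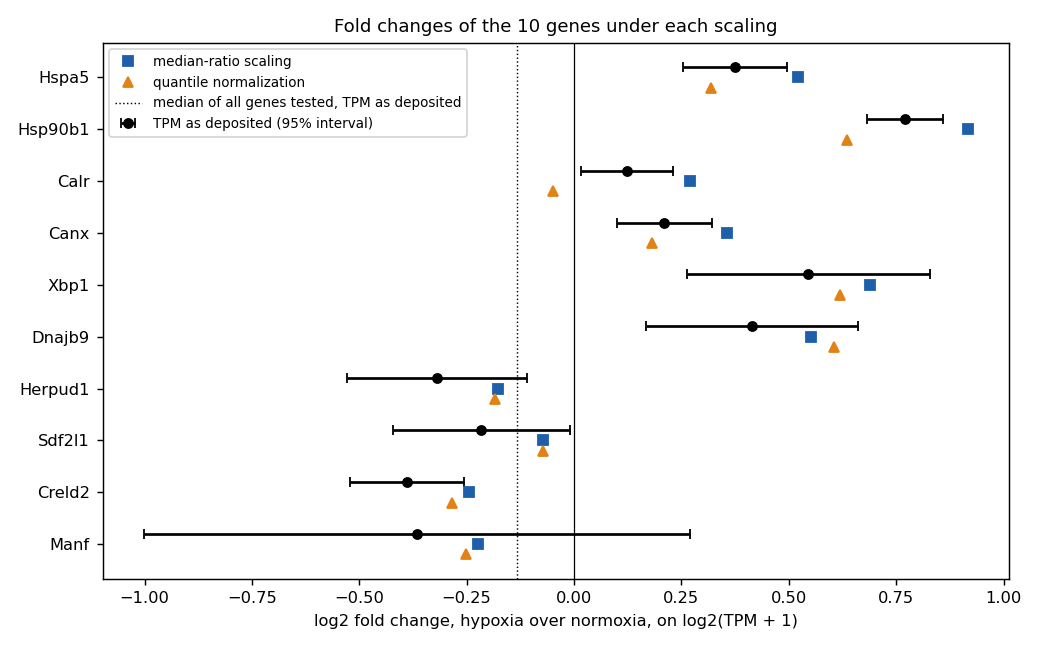
Log2 fold change of each gene, hypoxia over normoxia (horizontal axis), with TPM as deposited (circles, 95% interval), after median-ratio scaling (squares) and after quantile normalization (triangles). The dotted line is the median of all genes tested, -0.13. Hspa5, Hsp90b1, Canx, Xbp1 and Dnajb9 lie to the right of 0 at all symbols, Creld2 to the left, and Calr changes sides after quantile normalization.

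Levels were compared on the TPM scale, which is per transcript length. Under hypoxia Hsp90b1 had the highest mean, 987 TPM, followed by Calr at 911, Hspa5 at 514 and Canx at 412, and each of the 3 hypoxia libraries had more Hsp90b1 than Calr. Under normoxia the order of the leading pair was turned, with Calr at 836 TPM above Hsp90b1 at 578, before Hspa5 at 396 and Canx at 356. Within a library the ratio of Hsp90b1 to Calr was 1.11, 1.06 and 1.09 under hypoxia, against 0.692, 0.704 and 0.679 under normoxia. Such ratios do not change when a library is scaled by a single factor, as median-ratio scaling does, but quantile normalization can change them.

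The other genes lay far below. Under hypoxia Xbp1 averaged 97.2 TPM, Creld2 50.9, Manf 42.6, Herpud1 34.4, Sdf2l1 34.2 and Dnajb9 20.8, where Manf overlapped Creld2, Herpud1 and Sdf2l1, and Herpud1 overlapped Sdf2l1. Under normoxia Xbp1 and Creld2 averaged 66.6 and 66.9 TPM and overlapped, before Manf at 52.6, Herpud1 at 43.1 and Sdf2l1 at 40.04, and Dnajb9 at 15.4. There Manf overlapped Xbp1, and Herpud1 overlapped Sdf2l1. Ranked among all genes tested by mean level, Calr stood at the 99.0th percentile, Hsp90b1 at the 98.8th, Hspa5 at the 98.0th and Canx at the 97.7th, against the 46.5th for Dnajb9. The group therefore spans very abundant and middling mRNAs.

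Summed, the 10 genes made up 2967, 3166 and 3180 TPM under hypoxia, against 2520, 2374 and 2458 TPM under normoxia, or 0.323 ± 0.009% of the annotated TPM under hypoxia and 0.251 ± 0.006% under normoxia (SD, n = 3 each). The 4 chaperones Hspa5, Hsp90b1, Calr and Canx alone gave 2824 ± 110.3 TPM under hypoxia and 2166 ± 60.8 TPM under normoxia. The sum of Dnajb9, Herpud1, Sdf2l1, Creld2 and Manf went the other way, at 183 ± 20.4 TPM under hypoxia and 218 ± 7.04 TPM under normoxia. Xbp1, which was called higher, is in neither of these sums. Within the second sum Dnajb9 was itself called higher, and hypoxia replicate 2 of Manf was low, at 25.2 TPM. The ratio of Hspa5 to Creld2 was 10.2, 10.3 and 9.84 under hypoxia, against 6.04, 5.64 and 6.08 under normoxia. Hsp90b1 over Hspa5 was 1.98, 1.90 and 1.89 under hypoxia, against 1.46, 1.52 and 1.41 under normoxia. Both chosen ratios separated the groups, and Dnajb9 over Hspa5 did not, at 0.0401, 0.0397 and 0.0418 under hypoxia against 0.0439, 0.0371 and 0.0359 under normoxia. These pairs were chosen after the values were seen and are given without a test.

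The deposited tables hold another measure beside the annotated gene, the locus that StringTie assembled at that position, which can count unannotated transcripts and merged neighbours too. It was not always the larger: in hypoxia replicate 3 Creld2 had 48.8 TPM by locus and 53.7 TPM by gene. With the locus in place of the gene, Calr was called higher (0.15, limma adjusted p = 0.042), and Hsp90b1 and Xbp1 were no longer called. For Calr the 2 measures differed only in normoxia replicate 3, at 786 TPM by locus and 833 TPM by gene. Hsp90b1 (GENCODE, mm10, chr10:86690209-86705509, minus strand) had locus values of 956, 1728 and 1711 TPM under hypoxia, against 1044, 1010 and 565 TPM under normoxia. In 4 libraries the locus thus far exceeded the gene, and in hypoxia replicate 1 and normoxia replicate 3 the locus and the gene were level. Gm25745, a gene annotated as a miRNA whose 133 exonic bases lie wholly inside Hsp90b1 exons on the same strand, had 745 to 757 TPM under hypoxia and 456 to 472 TPM under normoxia. With the locus in place of the gene the log2 fold change of Hsp90b1 was 0.75, with a limma adjusted p of 0.0803. What the larger loci counted was not tested, and reads in the shared bases cannot be told apart between Hsp90b1 and Gm25745.

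Xbp1 (chr11:5520659-5525893, plus strand) had locus values of 97.9, 134 and 140 TPM under hypoxia, against 87.0, 139 and 93.3 TPM under normoxia. The groups overlapped here, and with the locus in place of the gene the log2 fold change was 0.23 with a limma adjusted p of 0.377. In normoxia replicate 2 the annotated Xbp1 gene took 39.9% of its locus, against 74.1 to 89.4% in the other libraries. The rise of Xbp1 thus holds for the annotated gene and was not called for the locus. Manf (chr9:106838312-106891979, minus strand) had locus values of 57.3, 25.3 and 57.0 TPM under hypoxia, against 55.1, 51.1 and 74.8 TPM under normoxia. Its annotated span covers Rbm15b on the same strand, which was merged into the locus in hypoxia replicates 1 and 2 and normoxia replicate 3, and hypoxia replicate 2 was low by either measure.

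**Figure D3:**
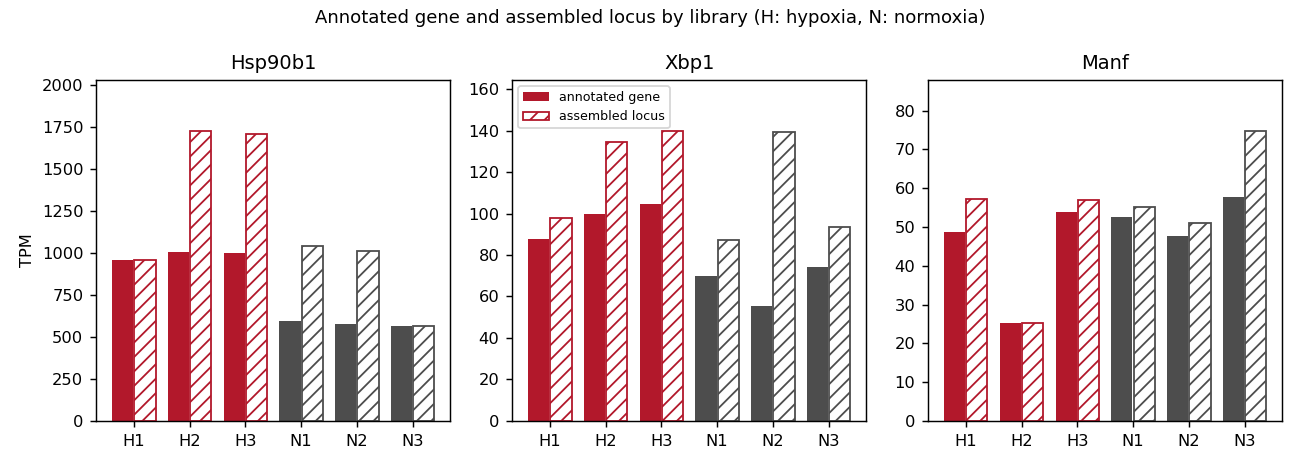
TPM (vertical axes, from 0) of the annotated gene (filled bars) and of the assembled locus (hatched bars) in hypoxia libraries H1 to H3 and normoxia libraries N1 to N3. For Hsp90b1 the locus exceeds the gene in 4 libraries, for Xbp1 normoxia replicate 2 reaches 139 TPM by locus and 55.6 TPM by gene, and for Manf hypoxia replicate 2 is low by both.

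The promoter elements printed above were then set beside the changes. Of the 5 genes with an ERSE, Hspa5, Hsp90b1 and Canx were higher, Creld2 was lower and Calr was not called, while Xbp1 and Dnajb9 were higher with no ERSE in the window. Among all genes, 37 symbols had an ERSE in their promoter, and 15 of these were tested under the same symbol. Of the 15, 4 were higher, 2 lower and 9 not called, where 17.9% of all genes tested were higher and 36.1% lower. Their median log2 fold change was 0.05. Without the 5 genes of the group, 1 of 10 was higher and 1 lower, with a median of -0.01, against -0.13 for all genes tested. Ero1b, which was tested under its older symbol Ero1lb, was not matched and is missing from these counts and medians. It was not called (0.12, limma adjusted p = 0.341). Pdia6, a protein disulfide isomerase, was among the genes with an ERSE that were not called, at 198 ± 7.27 TPM under hypoxia and 217 ± 13.6 TPM under normoxia (limma adjusted p = 0.101). Of 12 symbols with an ERSE-II, 8 were tested under the same symbol. Of these 8, 2 were higher and 4 lower, beside the same all-gene shares, and their median was -0.33. Beside Herpud1 the lower ones included Dnajb11, which encodes the BiP cochaperone ERdj3. A match of letters is a description of the sequence and not of binding.

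**Figure D4:**
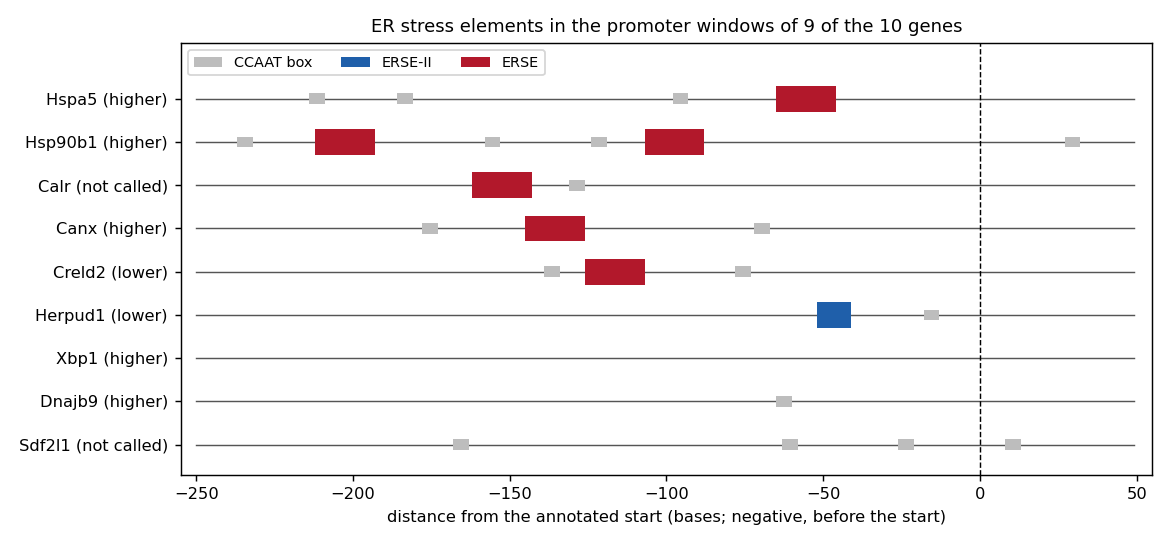
Positions of the ERSE (red), the ERSE-II (blue) and single CCAAT boxes (grey) in the windows of 9 genes, by distance in bases from the annotated start (dashed line), with the call of each gene in brackets. The ERSE occurs once in Hspa5, Calr, Canx and Creld2 and at 2 places in Hsp90b1, and it accompanies higher, lower and uncalled genes.

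The rest of the pathway was read from lists of its parts. Of 16 sensors and transcription factors tested, 2 were higher and 9 lower, with a median log2 fold change of -0.19, where 17.9% of all genes were higher and 36.1% lower. Median-ratio scaling gave 3 higher and 5 lower, with a median of -0.05, and quantile normalization 4 and 7. Ern1, which encodes IRE1, was at 16.3 ± 0.44 TPM under hypoxia and 16.7 ± 0.11 TPM under normoxia, and Atf6 at 31.7 ± 1.66 TPM under hypoxia and 32.1 ± 0.27 TPM under normoxia (SD, n = 3 each). Neither was called, with log2 fold changes of -0.03 and -0.02, although Ern1 was called higher after quantile normalization (0.17, limma adjusted p = 0.0352). Eif2ak3, which encodes PERK, was at 21.4 ± 0.92 TPM under hypoxia and 18.7 ± 0.86 TPM under normoxia, with a log2 fold change of 0.18 close to the threshold (limma adjusted p = 0.0497). This call was lost with no filter, without the mitochondrially encoded genes, on FPKM, with a replicate block and without any single library but hypoxia replicate 3, with limma adjusted p from 0.0594 to 0.137. Atf6b, Mbtps1 and Mbtps2, the last pair encoding the Golgi proteases that cut ATF6, were lower by log2 fold changes of -0.57, -0.50 and -0.69, and Creb3l1, an ATF6-like factor, by -0.83.

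The PERK and ATF4 arm had 10 of 16 genes lower and 3 higher, where 36.1% of all genes were lower and 17.9% higher. Its median was -0.57, against -0.13 for all genes tested. The arm had 8 lower and 4 higher with a median of -0.43 after median-ratio scaling, and 10 lower and 5 higher after quantile normalization. Atf4 itself was at 312 ± 15.3 TPM under hypoxia and 464 ± 20.7 TPM under normoxia, and its target Chac1, a glutathione-degrading enzyme, at 17.1 ± 1.28 TPM under hypoxia and 77.1 ± 2.76 TPM under normoxia. Their log2 fold changes were -0.57 and -2.11. Ddit3, the CHOP gene, was not called, at 90.1 ± 9.36 TPM under hypoxia and 75.5 ± 9.91 TPM under normoxia (limma adjusted p = 0.0955), but was called higher after median-ratio scaling (0.40) and quantile normalization (0.33). Vldlr and Ddit4, also known as HIF targets, were higher, with log2 fold changes of 1.67 and 0.51.

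Folding factors around BiP were mixed. Of 13 BiP cochaperones and exchange factors, 4 were higher and 3 lower, where 17.9% of all genes were higher and 36.1% lower. Their median was -0.08, and 0.06 after median-ratio scaling. Sil1, a nucleotide exchange factor of BiP, was at 71.7 ± 2.50 TPM under hypoxia and 52.9 ± 2.40 TPM under normoxia, whereas Dnajb11 was at 51.9 ± 1.55 TPM under hypoxia and 73.4 ± 2.62 TPM under normoxia. Of 19 protein disulfide isomerases and oxidases, 4 were higher and 4 lower, against 6 and 4 after median-ratio scaling and 7 and 5 after quantile normalization. Ero1l, the oxidase that reoxidises disulfide isomerases and a known HIF target, was at 603 ± 9.11 TPM under hypoxia and 45.5 ± 1.48 TPM under normoxia, a log2 fold change of 3.70 (limma adjusted p = 1.23e-07). P4hb encodes protein disulfide isomerase and the beta subunit of collagen prolyl 4-hydroxylase. It was at 1434 ± 24.7 TPM under hypoxia and 836 ± 8.86 TPM under normoxia. Its log2 fold change was 0.78, close to that of Hsp90b1. The other higher genes were Tmx4 (1.05) and Tmx2 (0.18), and the lower ones were Pdia4 (-0.25), Tmx1 (-0.29), Tmx3 (-0.32) and Txndc11 (-0.46).

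Of 17 genes of the calnexin cycle and lectins, 4 were higher and 5 lower, and of 26 genes of ER-associated degradation, 5 were higher and 6 lower. Median-ratio scaling turned these counts to 8 and 3 and to 10 and 3. The same scaling moved all 13749 genes tested from 2463 higher and 4967 lower to 3603 and 3622. Edem2, which trims mannose from misfolded glycoproteins, was higher by a log2 fold change of 0.38, and Vcp, the ATPase that extracts substrates from the membrane, was lower by -0.70. Of 29 genes of the translocon, signal peptidase and oligosaccharyltransferase, 4 were higher and 11 lower with TPM as deposited, and 7 each way after median-ratio scaling. Of 3 KDEL receptors, which return chaperones bearing a KDEL tail, BiP and GRP94 among them, from the Golgi to the ER, 2 were higher. Kdelr2 and Kdelr3 both had log2 fold changes of 0.66, and Kdelr1 was not called, at 0.19 (limma adjusted p = 0.0655). All 3 receptors were called higher after median-ratio scaling and after quantile normalization. Of 7 reported substrates of IRE1-dependent mRNA decay, 4 were lower and 3 not called, where 36.1% of all genes were lower, and 3 were lower under either scaling. Pdgfrb, also on the fibroblast marker list, was at 1.45 ± 0.18 TPM under hypoxia and 6.62 ± 0.21 TPM under normoxia. The uncalled ones were Bloc1s1 (0.39), Sparc (0.02) and Hgsnat (-0.17).

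**Figure D5:**
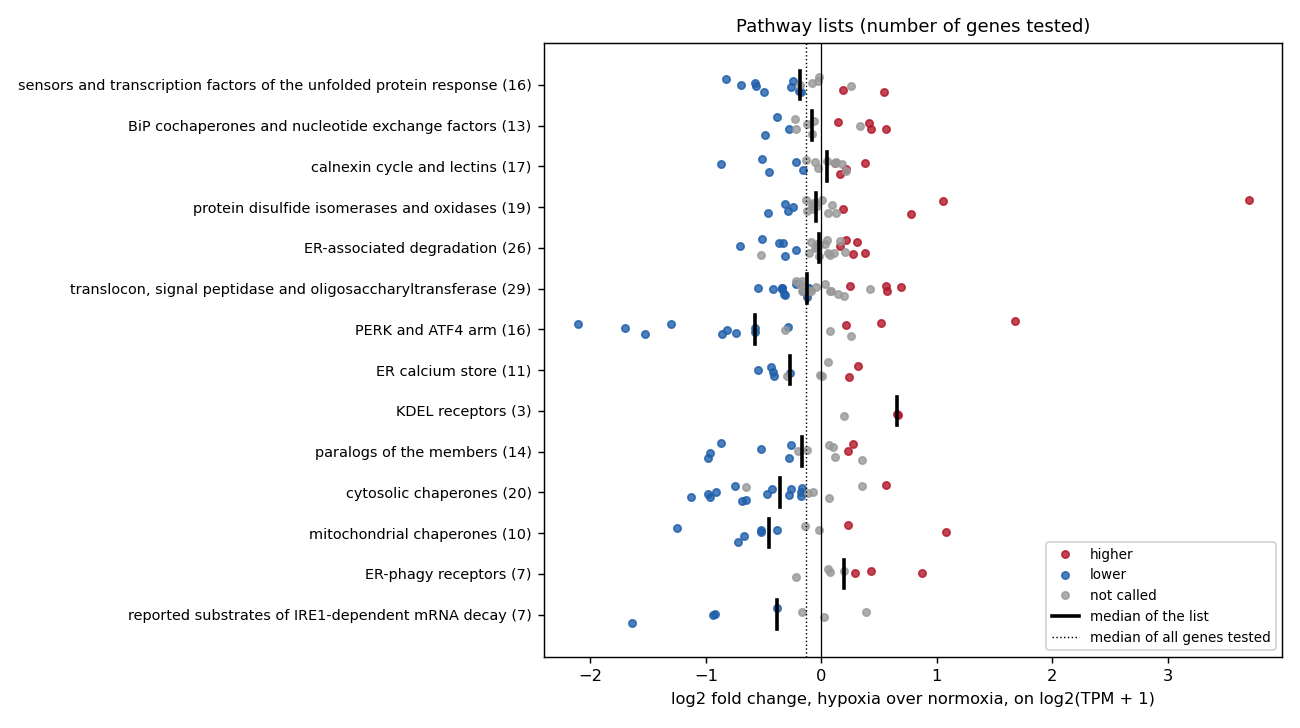
Log2 fold change, hypoxia over normoxia (horizontal axis), of each gene tested in lists of the pathway and of related chaperones, with red for higher, blue for lower and grey for not called. Black bars are list medians and the dotted line is the median of all genes tested, -0.13. The PERK and ATF4 arm has a median of -0.57, while most ER lists lie near the dotted line. The 3 KDEL receptors have a median of 0.66, with Kdelr1 at 0.19.

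Paralogs of the group, in the cytosol, mitochondria and ER, were read beside it. Of 14 paralogs tested, 2 were higher and 6 lower, where 17.9% of all genes were higher and 36.1% lower. Their median of -0.16 stood near the -0.13 of all genes tested. After median-ratio scaling 3 were higher and 4 lower, with a median of -0.02. Hsp90aa1, the inducible cytosolic HSP90, was at 660 ± 14.5 TPM under hypoxia and 794 ± 43.7 TPM under normoxia, with a log2 fold change of -0.27 that was called lower but not after median-ratio scaling (-0.12, limma adjusted p = 0.0889). The ratio of Hsp90b1 to Hsp90aa1 within a library was 1.47, 1.49 and 1.53 under hypoxia, against 0.719, 0.708 and 0.759 under normoxia. Hsp90ab1, the constitutive form, was not called, with a log2 fold change of 0.07, but was called higher after median-ratio scaling (0.21, limma adjusted p = 0.00352). Hspa8, the constitutive cytosolic HSP70, had 1509 TPM in normoxia replicate 2 and 2410 to 2498 TPM in the other normoxia libraries, and was not called. Hspa1a and Hspa1b were lower by log2 fold changes of -0.96 and -0.98, but these near-identical copies share reads and are uncertain one by one. Sdf2 and Creld1, the paralogs of Sdf2l1 and Creld2, were not called, at -0.12 and 0.10, nor were Hspa2 (-0.20) and Hspa1l (0.12). Herpud2, the paralog of Herpud1, was called higher, at 0.28. Trap1 (-0.53), Hspa13 (-0.28) and Calr3 (-0.87, with means of 1.89 TPM under hypoxia and 4.25 TPM under normoxia) were called lower. The Hspa13 call was lost after median-ratio scaling (-0.14, limma adjusted p = 0.0576).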

How the data were processed

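Poly(A) RNA of 6 GC-2spd libraries was analysed, 3 of hypoxic and 3 of normoxic cells, grouped by their labels. The authors trimmed reads (Cutadapt), mapped them to mm10 (HISAT2) and estimated gene abundance (StringTie; versions and annotation release are not given in the sources used here). The deposited values per library are coverage, FPKM and TPM. Because each deposited table lists annotated genes beside assembled loci, its TPM column sums to more than TPM values should and was treated as a score: rows with Ensembl IDs were kept (43432 IDs, 42462 matched to a symbol of GENCODE release 21) and summed per symbol. Deposited coverage and FPKM were used to estimate aligned bases, since no counts were used, so counting intervals could not be given.

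Genes with a mean of at least 1 TPM were tested with limma 3.58.1 in R 4.3.3 on log2(TPM + 1), with a trend of variance on the mean, no covariate, 2-sided, and Benjamini-Hochberg adjustment over all 13749 genes at 0.05. The test of the study needs counts and was not used. Fold changes on this scale understate changes of low genes. The script was tested on simulated data. The 10 genes, the pathway lists and the markers were chosen with earlier results of these data known. Besides the 10 genes, the text names the main sensors and transcription factors and paralogs with a mean of at least 1 TPM. From each list, up to 4 called genes per direction by adjusted p could be named, and only some of these are. Pdia6, Ero1b, Kdelr1 and the uncalled substrates of IRE1-dependent mRNA decay were named after their values were seen. Of the listed genes, 5 were matched by an older symbol. Alternatives were a pseudocount of 0.1, no filter, a mean of at least 5 TPM, median-ratio scaling, quantile normalization, removal of mitochondrially encoded genes, FPKM, no variance trend, a replicate block, leaving out each library and, chosen after seeing the data, the assembled locus in place of the annotated gene. For Canx, normoxia replicate 2 had no locus of its own on the same strand and was left out of that alternative. Promoter motifs were searched with Python 3.11.15 on both strands.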

Additional observations from a re-analysis of the deposited data

How the results depend on the processing

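The 5 genes called higher (Hspa5, Hsp90b1, Canx, Xbp1, Dnajb9) and Creld2, called lower, kept their direction and call in every alternative fitted except the assembled locus, where Hsp90b1 and Xbp1 were no longer called. Among the 10 genes the number lower was 2 with TPM as deposited, 1 after median-ratio scaling, 1 after quantile normalization, and 1 to 2 when 1 library was left out, with Herpud1 the call lost each time, while without the mitochondrially encoded genes and on FPKM it was 3. Over the pathway lists 34 genes were higher and 75 lower with TPM as deposited, and 52 were higher after median-ratio scaling. Over all genes tested, 2463 were higher and 4967 lower with TPM as deposited, and 3603 were higher after median-ratio scaling. Ern1, at -0.03, was 0.17 after quantile normalization; the cause was not tested. Over the genes that the naming rule allowed, some of which the text does not name, 1346 alternatives left the call as it was. Another 71 lost it, 12 gained it and 1 turned the direction of a value called in either fit. Calr, uncalled in both fits, changed sign after quantile normalization (-0.05). The genes named after their values were seen are not in this tally. With a replicate block 2281 genes were higher and 4674 lower, and no call among the 10 genes changed. Equal replicate numbers did not pair the libraries, with correlations of their deviations of 0.03, 0.03 and 0.01. No counts were used, so the depth behind each value is known only through the estimated aligned bases.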

Other observations

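Of 20 cytosolic chaperones tested, 1 was higher and 14 were lower with TPM as deposited, where 36.1% of all genes were lower, and the median log2 fold change was -0.35. After median-ratio scaling 2 were higher and 9 lower. Hspb1, a small heat shock protein, was at 411 ± 7.02 TPM under hypoxia and 661 ± 21.1 TPM under normoxia, and Hspa4, a nucleotide exchange factor of cytosolic HSP70, at 111 ± 1.28 TPM under hypoxia and 174 ± 0.93 TPM under normoxia. The gene higher with TPM as deposited was Hspa4l, at 71.3 ± 2.91 TPM under hypoxia and 48.4 ± 5.26 TPM under normoxia.

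Of 10 mitochondrial chaperones and proteases, 6 were lower and 2 higher under each scaling tried. With TPM as deposited, 36.1% of all genes were lower and 17.9% higher. Hspd1 and Hspe1, which encode the 2 parts of the mitochondrial chaperonin, were lower by log2 fold changes of -0.67 and -0.72. Lonp1, the matrix protease, was at 437 ± 6.32 TPM under hypoxia and 206 ± 1.84 TPM under normoxia, and Hspa9, the mitochondrial HSP70, was higher by 0.23.

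Of 7 ER-phagy receptors, 3 were higher and 4 not called, where 17.9% of all genes were higher, and 5 were higher after median-ratio scaling. Tex264 was at 70.9 ± 4.06 TPM under hypoxia and 38.4 ± 3.57 TPM under normoxia, and Retreg1 at 39.7 ± 3.08 TPM under hypoxia and 29.2 ± 1.69 TPM under normoxia. Of 11 genes of the ER calcium store, 2 were higher and 5 lower, where 17.9% of all genes were higher and 36.1% lower. Stim1 was at 0.31 and Stim2 at -0.55.

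Other elements were looked for in the 9 promoter windows. The XBP1 element TGACGTGG was in 0 of them and in 0.676% of all promoters. The amino acid response element TTGCATCA was in 1, that of Herpud1, and in 0.895% of all promoters. The letters ACGTG and GCGTG, which hold the core of HIF sites and overlap CCACG on the other strand, were in 4 and 6 windows, against 19.6% and 32.4% of all promoters. The windows held 60.3 to 68.3% G and C, except Xbp1 at 51.0%, against a median of 52.7% over all promoters. None of the shares of motifs was adjusted for this difference.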
